A study of Oryzias latipes with 7 samples.

Results

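A set of 93 probe sets was low in medaka ovarian follicles at 47, 35 and 32 h before spawning and high at 23, 14, 8 and 2 h. These 93 came from 63698 probe sets on the array, of which 47773 lay above a filter on low values. Members were chosen from the log2 RMA intensities of the 7 arrays. The 7 values of a probe set were sorted, and the widest gap between neighbouring values had to be at least 2 on the log2 scale (4-fold), with exactly the 23, 14, 8 and 2 h arrays above it. The height of the step and its place between 32 h and 23 h are therefore properties of the selection, are given as description and carry no test.

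The study profiled isolated follicles of Oryzias latipes, a small teleost fish reared at 27 °C with 14 h of light a day, through late vitellogenesis, oocyte maturation and the hours before ovulation. Total RNA of 100 pooled follicles was labelled with Cy3 for each time, and each of the 7 times has 1 array without a replicate. The later follicles were those of 23, 14, 8 and 2 h before spawning and the earlier follicles those of 47, 35 and 32 h. All came from the same rearing condition, and no strain, age or treatment is given in the labels used here. One label field of the last sample gives 5 h in place of 2 h. Because each sample is whole follicles, a larger share of a cell type and more RNA per cell of that type cannot be told apart.

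A follicle consists of an oocyte and the granulosa and theca cells around it. During vitellogenesis the oocyte takes up yolk precursors while granulosa cells make oestradiol under follicle-stimulating hormone. A surge of luteinizing hormone then shifts the follicle to making the progestin that induces oocyte maturation, after which the nuclear progestin receptor and its target genes take part in follicle rupture. None of the 63698 identifiers matched the reference gene table used here, so no member is assigned a gene or a role, and the labelled follicle identity was not checked against marker genes.

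The source of the times bears on every value below. The series table holds the same 7 arrays but places 5 of them under other samples. In its order the 93 members are high at 35, 32, 23 and 8 h and low at 47, 14 and 2 h, so that the step becomes 2 separate episodes. Applied to the table's times, the same rule finds 14 probe sets, of which 0 are among the 93. Without the 23 h array the rule finds 164 probe sets and without the 2 h array 234, each with 91 of the 93. The text follows the per-array files. The numbers of the arrays have either 6 digits (47, 23, 14 and 2 h) or 8 digits (35, 32 and 8 h), and both of these array-number series have arrays on each side of the step. Array medians over the 63698 probe sets were 653, 643 and 599 in the 8-digit arrays of 35, 32 and 8 h. In the 6-digit arrays they lay between 682 and 703.

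Across the 93 members the median intensity was 262 at 47 h, 201 at 35 h and 200 at 32 h. It was 4401, 10268, 13508 and 6439 at 23, 14, 8 and 2 h. The medians of the earlier 3 times thus lay close together, and those of the later 4 formed an arch with its top at 8 h. Single members varied more, as described below. The lowest member intensities were 180, 285, 194 and 215 in the arrays of 23, 14, 8 and 2 h, against 16.6, 20.9 and 20.1 in those of 47, 35 and 32 h. The highest member stood at 51222 at 23 h and 58357 at 8 h, against 5922 at 47 h and 8827 at 32 h. The mean of the later arrays minus the mean of the earlier arrays had a median of 4.67 on the log2 scale over the members, with a range of 2.35 to 9.67. In all 93 the later values lay at least 4-fold above the earlier ones, as the rule requires. Among all kept probe sets the later values lay above the earlier ones without overlap in 5.85% and by at least 4-fold in 0.224%.

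**Figure D1:**
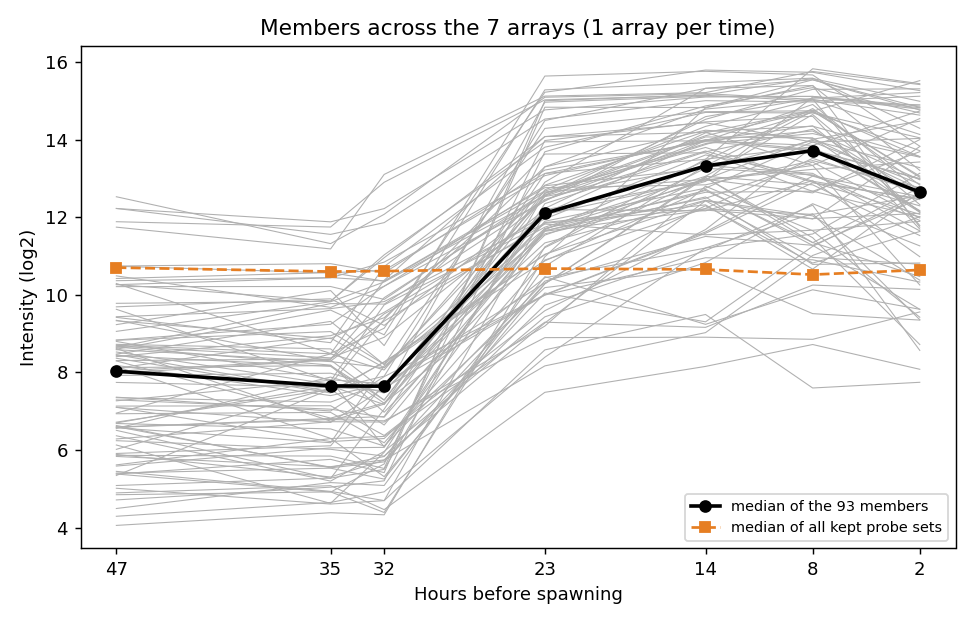
Intensity on the log2 scale (vertical axis) of each of the 93 members (grey lines) at 47, 35, 32, 23, 14, 8 and 2 h before spawning (horizontal axis), with 1 array per time, the member median in black and the median of all 47773 kept probe sets in orange. The member median is lowest at 32 h (7.65) and highest at 8 h (13.72), while the median of all kept probe sets stays between 10.52 and 10.70.

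Within each array-number series the later arrays also lay above the earlier ones. Neither series holds both the 32 h array (8 digits) and the 23 h array (6 digits). The place of the step between these times therefore rests on arrays of different series. The median of 23 h minus 32 h was 3.81 on the log2 scale, and how far the series bears on it was not tested. Among the 6-digit arrays, the mean of 23, 14 and 2 h minus the 47 h value had a median of 4.14 on the log2 scale, with a lowest member at 2.37. Among the 8-digit arrays, the 8 h value minus the mean of 35 and 32 h had a median of 5.22, with a lowest member at 2.08. Arrays separated by 24 h have both the hour of the day and the array-number series in common, and gave a median of 3.67 for 23 h minus 47 h and of 5.15 for 8 h minus 32 h. The rule used all of these arrays, so the figures describe how the step is spread over the arrays and are not a check on it.

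The width of the gap varied widely among members. Its median was 2.73 on the log2 scale, or 6.66-fold between the lowest later and the highest earlier array. A gap of at least 3 was found in 38 members, of at least 5 in 15 and of at least 8 in 3. The rule fixes only the lower limit of 2. Among all kept probe sets, whatever arrays lay above the gap, 5 had a gap of at least 8, and 3 of these 5 were members. At lower limits the members were a smaller share, with 12 of 87 at a gap of at least 6, 15 of 189 at 5 and 93 of 2399 (3.88%) at 2. Of those 189, 60 were high at 2 h only and 46 at 8 and 2 h only.

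The widest gap belonged to probe set OLAT0001S00034827. Its intensity was 41.7 at 47 h, 54.2 at 35 h and 42.7 at 32 h, then 32936, 36570, 49027 and 32630 at 23, 14, 8 and 2 h. The lowest later value was 602 times the highest earlier one, a log2 gap of 9.23. The later values differed by at most 0.59 on the log2 scale, and the earlier ones lay below the 25th percentile of their arrays. This probe set thus read low through 32 h and within 2-fold from 23 h onward. All its later values lay above 30000, and the highest intensities on the arrays were 64267 to 65327. How far the top of the scale bears on its flat later course was not tested.

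Probe set K_OLAT0000S00007135 had the next widest gap and almost the same course. It stood at 58.2, 57.4 and 46.0 at 47, 35 and 32 h and at 29347, 29179, 47888 and 29291 at 23, 14, 8 and 2 h. The gap was 8.97 on the log2 scale, or 502-fold. In both probe sets the 23, 14 and 2 h values lay close together and the 8 h value stood above them. The 8 h array is the only later one with an 8-digit number, and how far that bears on this rise was not tested. Whether the 2 probe sets report the same transcript was not tested.

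The third member with a gap above 8 stood at 26.2, 33.0 and 36.9 in the earlier arrays, and its gap was 8.49. Unlike the first pair it was at least 2-fold lower at 23 h, where it read 13231, than at 14 h (30025), 8 h (41638) and 2 h (26473).

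**Figure D2:**
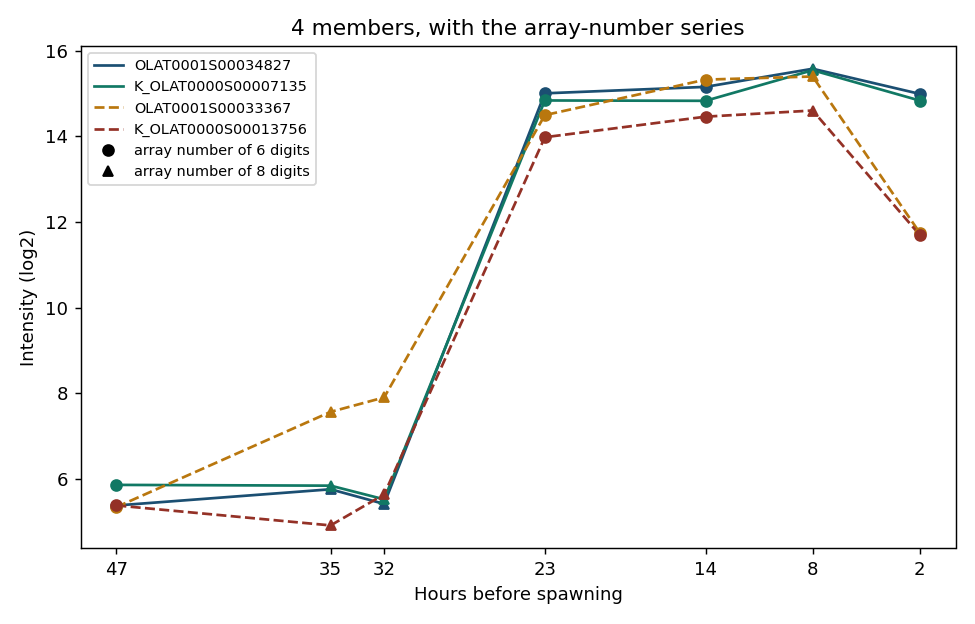
Intensity on the log2 scale (vertical axis) against hours before spawning (horizontal axis) for the 2 members with the widest gap (solid lines) and the 2 with the largest drop between 23 h and 2 h (dashed lines), 1 array per point, with circles for 6-digit and triangles for 8-digit array numbers. The solid lines stay between 14.83 and 15.58 from 23 h onward, and the dashed lines end near 11.7 at 2 h.

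A wide gap requires low earlier values on a scale with a fixed top. In the 15 members with a gap of at least 5 the later intensities lay between 1706 and 49027, against 16.6 to 236 in the earlier arrays. In 12 of the 15 the highest value fell at 8 h, which was the highest later array of 23.5% of all kept probe sets. The 23 members with a gap from 3 to 5 ranged from 336 to 57027 in the later arrays, against 19.6 to 1701 in the earlier ones, and 15 of them were highest at 8 h. The 55 members with a gap under 3 ranged from 180 to 58357 in the later arrays, against 22.1 to 8827 in the earlier ones. Of these 55, 25 were highest at 14 h, 16 at 8 h and the other 14 at 2 h, against 18.4%, 23.5% and 32.4% of all kept.

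The earlier intensities of the members spanned a wide range. One member with a gap of 2.54 read 4801 at 47 h, 3782 at 35 h and 4792 at 32 h, then 27978, 35225, 35618 and 29956 at 23, 14, 8 and 2 h. Another with a gap of 2.10 read 3791, 3447 and 7671 in the earlier arrays and 33488, 36310, 32821 and 35719 in the later ones. At the other end, 16 members, with no background share computed, had all 3 earlier values at or below the 25th percentile of their array. That percentile lay between 69.2 and 73.6. The files carry no detection call, so a fold change of such a member depends on where the low end of the scale lies. With an offset of 64 added before the logarithm, 74 of the 93 still met the rule.

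Before the step a smaller share of the members than of all kept probe sets held a steady level. The range over 47, 35 and 32 h stayed within 2-fold in 53 members, or 57.0%, against 81.4% of all kept probe sets. These shares compare probe sets of unlike intensity, since the rule takes members that are low at these times. The median log2 intensity of members was 8.03, 7.65 and 7.65 at 47, 35 and 32 h. For all kept probe sets it was 10.70, 10.60 and 10.61. How far intensity bears on the shares was not tested. Differences ran both ways. The 47 h array has a 6-digit number and the 35 and 32 h arrays 8-digit ones, and how far that bears on these shares was not tested. At 35 h 6 members were at least 2-fold higher than at 47 h and 12 at least that much lower, against 5.47% and 7.14% of all kept probe sets. At 32 h 15 were at least 2-fold higher than at 35 h and 6 lower, or 16.1% and 6.45% of members, against 2.61% and 2.65% of all kept. The 47 h array gave the highest earlier value of 32 members, the 35 h array of 29 and the 32 h array of 32. These counts were near even, with no share of all kept probe sets computed for them. The 2-fold differences from 35 h to 32 h were more often upward. The widest spread before the step was 2.84, in a member that read 285 at 47 h, 78.8 at 35 h and 39.8 at 32 h before standing at 1251 at 23 h and 25742 at 8 h.

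At 23 h most members were high but below their later maximum. The 23 h intensity was a median of 39.0% of the highest later intensity, and on the log2 scale a median of 73.0% of the whole rise had been covered. In 36 members the 23 h value was at least 50% of the maximum, and in 26 it was below 20%. No share of all kept probe sets was computed for these counts. Only 1 member was highest at 23 h, against 25.7% of all kept probe sets whose highest later array was the 23 h one. That member read 42.4, 46.3 and 38.1 in the earlier arrays and 1419, 605, 1122 and 792 at 23, 14, 8 and 2 h.

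Between 23 h and 14 h nearly all members were higher at the later time. The 14 h value exceeded the 23 h value in 87 of 93 members, against 46.1% of all kept probe sets. It was at least 2-fold higher in 44 members (47.3%), against 3.93% of all kept, and at least 2-fold lower in 1, against 4.41%. Both arrays belong to the 6-digit series. The median difference was 0.95 on the log2 scale. The largest was 3.84, in a member at 2024 at 23 h and 29001 at 14 h that had read 21.0 to 30.3 in the earlier arrays and went on to 43246 at 8 h and 9489 at 2 h. The rule sets no order among the later arrays, but it does require each of them to stand clear of the earlier ones, and no test was made of these counts. The set high at 23, 14 and 8 h, given below, also had a higher median log2 intensity at 14 h (12.39) than at 23 h (11.46).

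From 14 h to 8 h members went both ways. At 8 h 16 members (17.2%) exceeded their 14 h value by at least 2-fold and 11 (11.8%) lay that far below it, against 10.3% and 15.5% of all kept probe sets. The median difference was 0.13. The member with the largest gain read 8971 at 23 h and 11574 at 14 h, then 58357 at 8 h and 44679 at 2 h. The member with the largest loss read 383, 722, 194 and 215 at 23, 14, 8 and 2 h. At 8 h, 3 members were at least 2-fold below both neighbouring times, 14 h and 2 h, a count for which no background share was computed.

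From 8 h to 2 h lower values prevailed. The 2 h value was below the 8 h value in 68 of 93 members, against 44.3% of all kept probe sets. It was at least 2-fold lower in 33 members (35.5%), against 12.4% of all kept, and at least 2-fold higher in 10 (10.8%), against 15%. The median difference was -0.66. The 14 to 8 h and 8 to 2 h steps compare arrays of different number series, whose medians over all probe sets differed by -0.19 and 0.19 on the log2 scale. With each array centred on its median, 21 members were at least 2-fold higher and 9 lower at 8 h than at 14 h, against 13.4% and 11.6% of all kept probe sets. After the same centring 8 members were at least 2-fold higher and 38 lower at 2 h than at 8 h, against 11.5% and 15.6% of all kept.

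**Figure D3:**
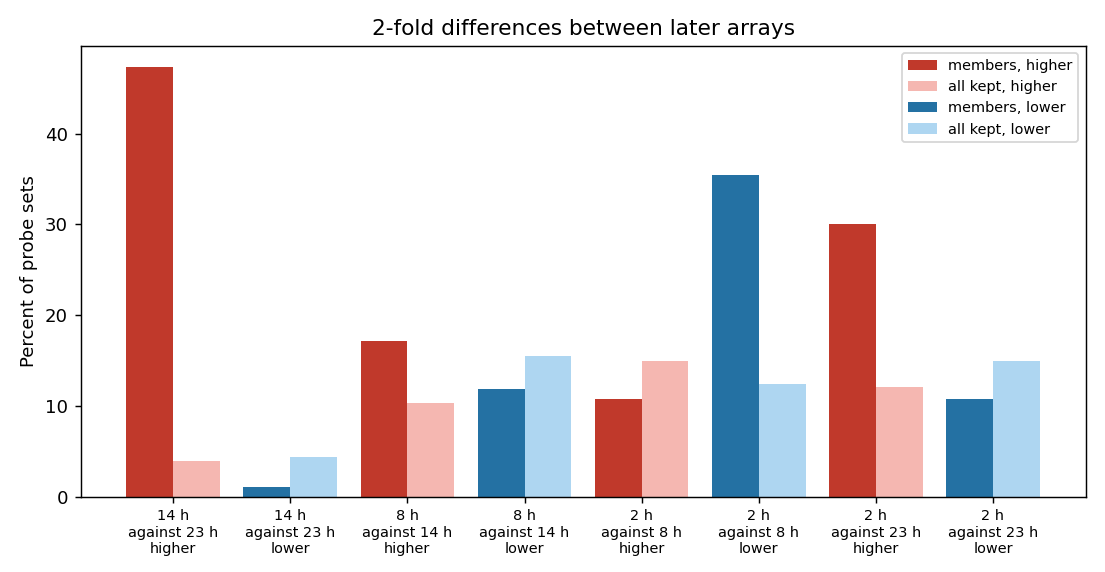
Percent of probe sets (vertical axis, from 0) at least 2-fold higher (red) or lower (blue) in each pair of later arrays, for the 93 members (dark bars, left) and all 47773 kept probe sets (pale bars, right). At 14 h against 23 h, 47.3% of members are higher, against 3.93% of all kept, and at 2 h against 8 h, 35.5% of members are lower, against 12.4%.

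Many members followed an arch over the later times. Both the 14 h and the 8 h values exceeded both the 23 h and the 2 h values in 50 members (53.8%). The share among all kept probe sets was 10.5%. In 14 of the 50 the excess was at least 2-fold, with no background share computed. The 8 h array gave the highest later value of 43 members (46.2%), the 14 h array of 32 (34.4%) and the 2 h array of 17 (18.3%), against 23.5%, 18.4% and 32.4% of all kept. The 8 h array is the only later one with an 8-digit number. How far that bears on maxima at 8 h, here or by width of the gap, was not tested. The lowest later value fell at 23 h in 50 members (53.8%) and at 2 h in 28 (30.1%), against 19.1% and 26.3% of all kept. The 8 h value was at least 2-fold above every other later value in 7 members (7.53%), the 2 h value in 5 (5.38%) and the 14 h value in 4 (4.30%), against 3.86%, 5.57% and 1.06% of all kept.

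Setting 2 h against 23 h divided the members by whether the 2 h value was near, above or below the 23 h value. The rule requires the 2 h array above the gap, so a full loss by 2 h was excluded in advance. Probe sets high at 23, 14 and 8 h and low again at 2 h form a separate set of 104. At 2 h 55 members (59.1%) were within 2-fold of their 23 h value. Another 28 (30.1%) exceeded their 23 h value by at least 2-fold and 10 (10.8%) lay at least 2-fold below. Among all kept probe sets 12.1% were higher and 14.9% lower by that much. A larger share of members than of all kept probe sets thus lay outside 2-fold, so the level share was smaller among members. Members were chosen for a wide gap and most kept probe sets have none, and how far that bears on these shares was not tested. The 2 h and 23 h arrays share the 6-digit series. The 3 courses are called level, rising and falling as descriptions, without a test.

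The 55 level members had median intensities of 5544, 12506, 11301 and 6031 at 23, 14, 8 and 2 h, against 340, 286 and 279 at 47, 35 and 32 h. A level similar at 23 h and 2 h thus usually included a higher level in between. In 20 of the 93 members (21.5%) all 4 later values lay within 2-fold of each other, against 48.2% of all kept probe sets. The flattest was the member at 33488, 36310, 32821 and 35719 described above, with a later range of 0.15 on the log2 scale. The next flattest read 32099, 35694, 35573 and 29082 in the later arrays after 94.3, 236 and 177 in the earlier ones. Of these 20 members, 9 reached at least 30000 in a later array, as did 23 of all 93. No share of all kept probe sets was computed for this limit. The highest intensities on the arrays were 64267 to 65327, and how far the top of the scale bears on flat courses was not tested.

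The 28 members at least 2-fold higher at 2 h than at 23 h had median intensities of 2541, 8099, 15497 and 10259 at 23, 14, 8 and 2 h, against 209, 146 and 156 at 47, 35 and 32 h. Their median difference between 2 h and 23 h was 2.13 on the log2 scale. The largest such difference was 4.55, in a member at 75.6, 64.9 and 57.4 in the earlier arrays and at 620, 5511, 3976 and 14532 in the later ones. Another read 59.2, 39.5 and 53.4, then 288, 522, 2074 and 4152. An increase at 14, 8 and 2 h in turn was seen in 7 of the 93 members (7.53%), against 6.18% of all kept probe sets, a share near the background. One of the 7 read 6309, 17637, 27339 and 47210 at 23, 14, 8 and 2 h, after 137, 105 and 194.

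The 10 members at least 2-fold lower at 2 h than at 23 h had median intensities of 7416, 15443, 17656 and 2675 at 23, 14, 8 and 2 h, against 101, 192 and 172 at 47, 35 and 32 h. They were chosen by a low 2 h value, so a low 2 h value beside other later arrays is partly built in. All 10 were lower at 2 h than at 8 h, 9 of them by at least 2-fold. The other one lost more between 14 h and 8 h, reading 3214, 6626, 2613 and 1421 at 23, 14, 8 and 2 h. In 3 of the 10 the 8 h value was already below the 14 h value. Probe set OLAT0001S00033367 had the largest drop. It read 40.6, 190 and 240 in the earlier arrays, then 23148, 41117, 43258 and 3442 at 23, 14, 8 and 2 h, a difference of -2.75 on the log2 scale between 2 h and 23 h. Probe set K_OLAT0000S00013756 read 41.7, 30.2 and 49.9, then 16181, 22573, 24945 and 3322, a difference of -2.28. At 2 h both still stood above all earlier values, as the rule requires, by log2 gaps of 3.84 and 6.06.

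**Figure D4:**
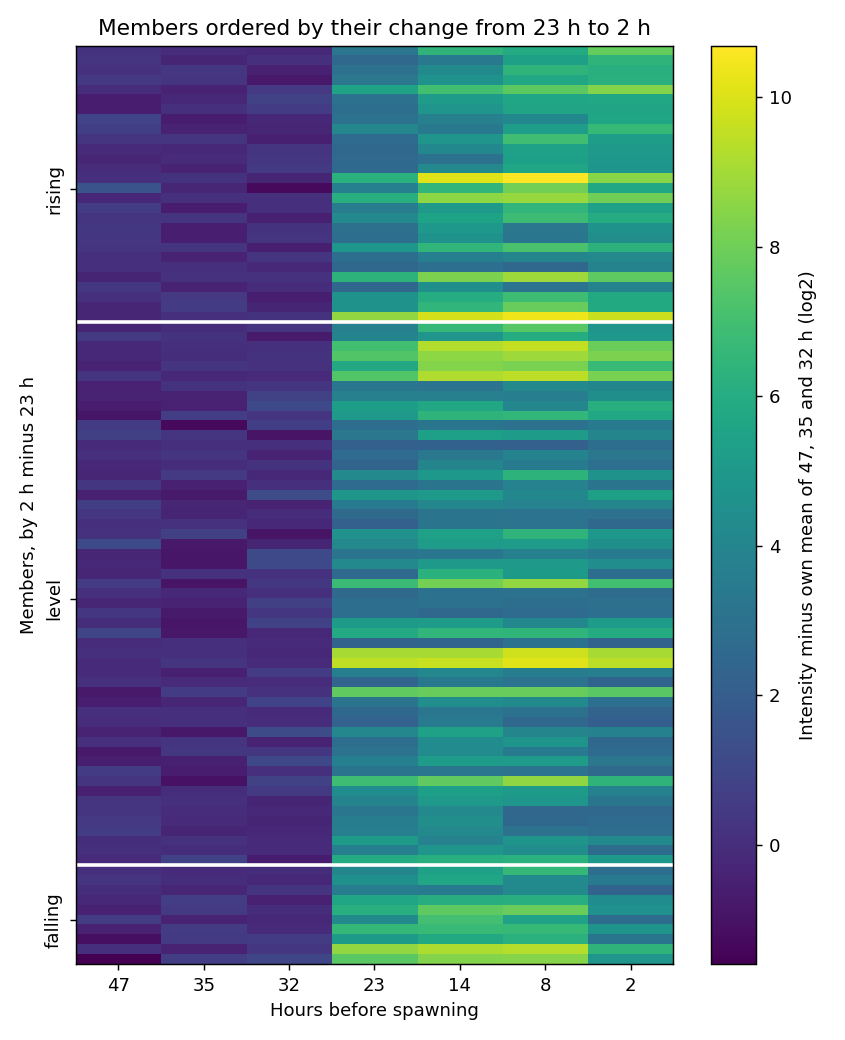
Log2 intensity of the 93 members (rows) at the 7 times (columns, hours before spawning), each row minus its own mean of 47, 35 and 32 h, ordered from the largest gain to the largest drop between 23 h and 2 h, with white lines between the 28 rising, 55 level and 10 falling members. The later 4 columns are brighter than the earlier 3 in all rows, and in the falling block the 2 h column is darker than the 23 h column of the same row.

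All 3 later courses occurred at wide and narrow gaps. Among the 15 members with a gap of at least 5, 9 were level, 5 rising and 1 falling between 23 h and 2 h. Among the 23 with a gap from 3 to 5 the numbers were 12, 6 and 5, and among the 55 with a gap under 3 they were 34, 17 and 4. No correlation was computed, since the lowest later array enters both measures.

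**Figure D5:**
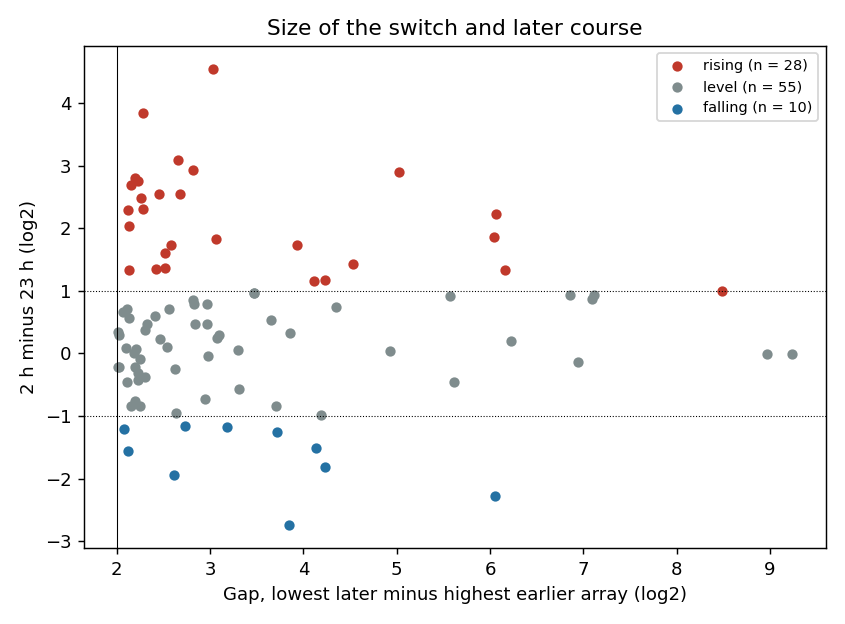
Log2 difference between 2 h and 23 h (vertical axis) against the log2 gap between the lowest later and the highest earlier array (horizontal axis) for each of the 93 members, with 28 rising (red), 55 level (grey) and 10 falling (blue). Dotted lines mark 2-fold differences and the solid line the gap of 2, and the 2 widest gaps (9.23 and 8.97) lie at a difference near 0.

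Beyond the intensities, the files give only identifiers and probes per probe set. Identifiers beginning with K_OLAT0000 made up 35 of the 93 members (37.6%), against 35.5% of kept probe sets, and those beginning with OLAT0001 made up the other 58. All 93 members have 6 probes, as do 99.3% of kept probe sets. Apart from 1 pair with consecutive numbers, no 2 members had numbers within 2 of each other. That pair is the member highest at 23 h and one that read 49.1, 78.6 and 81.6 in the earlier arrays and 629, 574, 1222 and 1131 in the later ones. Among the 4278 possible pairs of members, 32 had courses that differed by at most 0.5 on the log2 scale at every time after each was centred on its own mean. Members share a step by the rule, so alike courses are partly built in, and no share over other probe sets was computed. The 32 pairs involved 36 members, and 11 of the 32 joined identifiers of different beginnings. Whether any of them report one transcript was not tested, and the number of genes behind the 93 probe sets was not determined.

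The same rule with other arrays above the gap gave sets of the neighbouring shapes. The mirror set, high at 47, 35 and 32 h and low from 23 h onward, held 100 probe sets. A set high at 23, 14 and 8 h and low again at 2 h held 104, and a set high at 8 and 2 h alone held 236. The median gap was 2.73 in the members, against 2.73 in the mirror set, 2.75 in the set low again at 2 h and 3.21 in the set high at 8 and 2 h. A gap of at least 5 was found in 15 members (16.1%), against 2 (2%), 4 (3.85%) and 46 (19.5%). The sets were chosen by these values, so the figures were not tested. Median log2 intensities of the members were 12.10, 13.33, 13.72 and 12.65 at 23, 14, 8 and 2 h. In the set low again at 2 h they were 11.46, 12.39, 11.86 and 7.35. The mirror set and the set high at 8 and 2 h are low at 23 and 14 h by the rule. Their medians were lower at 14 h (6.36 and 6.97) than at 23 h (7.21 and 7.06). The set high at 23 and 14 h, with 44 probe sets, had a higher median at 14 h (11.1) than at 23 h (10.6). The set high at 14, 8 and 2 h, with 35, read 11.69, 12.93 and 12.77 at those times and was also highest at 8 h. The set high at 14 and 8 h, with 54, read 11.43 at 14 h and 11.31 at 8 h. A gap of at least 2 between the later and the earlier arrays was found in 107 kept probe sets, of which 14 had a wider one elsewhere and were not members. Of these, 4 had the widest gap below the 23, 14 and 8 h arrays and 4 below the 8 and 2 h arrays.

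The member with the narrowest gap (2.01) read 1321, 1396 and 1313 at 47, 35 and 32 h and 6565, 14295, 7817 and 5631 at 23, 14, 8 and 2 h. The nearest probe set outside, with a gap of 1.98, read 1222, 1727 and 1089 and then 7421, 21341, 25231 and 6829. The next member inside (gap 2.02) read 243, 253 and 194 and then 1022, 1990, 1919 and 1288, and the next probe set outside (gap 1.98) read 484, 219 and 239 and then 1909, 2751, 5043 and 10742.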

How the data were processed

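The intensities are RMA expression values that the authors deposited, per the file headers, as 1 value per probe set and array on a linear scale. RMA is also named in the submitters' processing notes. Its version and its settings are not given in any source used here. The number of probes per probe set was deposited beside them. The deposited series table equals the per-array files within 0.001 intensity units once its columns are reassigned. From the intensities, log2 values were taken, a mean of 7 values above the 25th percentile (6.24) was required, and the rule for members was applied (Python 3.11.15, numpy 2.4.6, pandas 2.3.3). Without the filter the same 93 were found. Probes differ in response, so ranges of intensity over members describe the array's readings and do not rank transcripts by abundance. No test was run, because the rule used all 7 arrays and each time has 1. The number of arrays limits the precision. Shares of all kept probe sets stand beside the members' counts as background where they were computed, and other counts describe the members only. The members and lists were chosen with earlier results of these data known. By the rule for named probe sets, the 2 members with the widest gap and the 2 with the largest drop from 23 h to 2 h are given by identifier. Gene lists and cell type markers needed symbols and were not used. Alternatives concerned the filter, the gap, scaling, an offset, the source of the times, single arrays and the array-number series.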

Additional observations from a re-analysis of the deposited data

How the results depend on the processing

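The number of members, 93, stayed within 1.5 times under 13 of 20 alternatives, and the percentages rising (30.1%), level (59.1%) and falling (10.8%) from 23 h to 2 h stayed within a band around them under 17, 16 and 16 of 18. The band is an exact 95% binomial interval over 93 probe sets that are not independent, and serves only as a limit for listing values. No member lay below the filter. Leaving the filter out or setting it at the 10th percentile therefore returned the same 93, and these alternatives count as kept in each tally. Gap limits of 1 and 3 gave 203 and 38 members, with median later-minus-earlier differences of 2.95 and 6.20 on the log2 scale, and a limit of 1.5 gave a median of 3.71; these follow from the limit itself. The times of the series table gave 14 members, 42.9% of them level and 28.6% falling, and shared 0 with the 93. The rule within the 6-digit arrays gave 212 and within the 8-digit arrays 1424, where fewer arrays have to be separated and the gap need not be the widest. All 93 are among each, which follows from the member rule and is not a check on it. A limit of 4-fold for the course gave 16.1% rising, 81.7% level and 2.15% falling. Leaving out 1 array gave 86 to 234 members, with 164 without the 23 h array and 234 without the 2 h array, both of which held 91 of the 93. The median difference was then 4.13 to 4.46, and the percentages were 23.3 to 34.7 rising, 55.7 to 65.1 level and 9.32 to 12.4 falling; without the 23 h or 2 h array no course could be given. Centring gave 84 members and quantile normalization 90, of which 84 and 89 were among the 93. No paired analysis was possible because each time has 1 array and no result comes from a test. Signals near the low end of the scale limit the size of the widest gaps.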
